A study of Mus musculus with 9 samples.

Results

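The 9134 ATAC-seq peaks of mouse chromosome 8 are described here along the length of the chromosome, out of 146734 peaks in all. Membership was decided by the chromosome in the peak's deposited name. The chromosome itself was chosen on measured values, the median log2 fold of each Med4 hairpin against the control in 10 Mb windows, which stepped up between the windows that begin at 100 and 110 Mb. Folds against the control along this chromosome, and the calls made from them below, are therefore a description and not a test of the step. All 9134 peaks had a mean normalised value of at least 10 over the 9 libraries and entered the fit, as did 146729 peaks of the genome.

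The cells were D2A1-d, a mouse breast carcinoma line, and the study's title concerns metastatic dormancy. The 3 groups were NTC, transduced with a non-targeting control hairpin and labelled wild type, and shMed4 #1 and shMed4 #4, each transduced with a different short hairpin RNA against Med4 and labelled as a Med4 knockdown. Every group had 3 libraries, labelled as biological replicates, and all were otherwise labelled untreated. Whether the replicates were separate transductions, and whether the cells were pools or clones, is not stated in the labels. Errors therefore measure the spread between these libraries. An SE comes from 1 fit over all 9 libraries, so at a given peak both hairpins share it. A short hairpin RNA acts on the messenger RNA, so accessibility at Med4 does not check the knockdown.

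In ATAC-seq a transposase inserts sequencing adapters into open chromatin, so that the number of reads in a peak measures the openness of its DNA. Med4 belongs to the middle module of Mediator, which bridges DNA-bound transcription factors and RNA polymerase II. Mouse chromosomes have their centromere at the low-coordinate end, so "centromeric" below means towards lower coordinates. Genes along a chromosome lie in alternating gene-rich and gene-poor stretches, which tend to differ in open chromatin and in the time at which they replicate. In a bulk sample the number of DNA copies of a stretch, the share of cells in which it is open and the signal per cell cannot be told apart.

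The submitters' processing notes name the builds mm10 and GRCm38. The step lies between the proteasome gene Psmd7 and the homeobox gene Zfhx3. The stretches upstream of the promoters nearest to it are shown because the results turn on what differs between one side and the other. They are the 250 bases before the annotated start of the 3 nearest genes on each side that had a promoter peak and whose 250 bases lie outside every annotated gene. The sequences come from RefSeq on GRCm38.p6 and read 5′ to 3′ on the gene's own strand. On the centromeric side these are Nob1 (minus strand, chr8:107425039-107425288), which serves maturation of the small ribosomal subunit, the quinone reductase Nqo1 (minus strand, chr8:107403206-107403455) and Cyb5b (plus strand, chr8:107150411-107150660), an electron carrier of the outer mitochondrial membrane. On the telomeric side these are the clathrin adaptor subunit Ap1g1 (plus strand, chr8:109778333-109778582), the RNA helicase Ddx19a (minus strand, chr8:110997824-110998073) and the RNA exosome subunit Exosc6 (plus strand, chr8:111056089-111056338). Capitals mark matches on either strand to the GC box GGGCGG, the CCAAT box, the TATA box TATAAA and the AP-1 site TGANTCA.
Nob1: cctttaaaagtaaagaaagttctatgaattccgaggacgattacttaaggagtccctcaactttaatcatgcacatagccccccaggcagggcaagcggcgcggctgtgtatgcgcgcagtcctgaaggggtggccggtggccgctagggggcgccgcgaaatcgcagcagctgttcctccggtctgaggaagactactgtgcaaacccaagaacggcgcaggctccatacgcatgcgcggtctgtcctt
Nqo1: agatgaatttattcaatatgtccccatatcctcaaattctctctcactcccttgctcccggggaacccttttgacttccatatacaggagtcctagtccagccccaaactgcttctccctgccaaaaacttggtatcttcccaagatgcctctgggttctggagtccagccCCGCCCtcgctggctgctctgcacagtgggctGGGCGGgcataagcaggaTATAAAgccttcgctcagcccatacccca
Cyb5b: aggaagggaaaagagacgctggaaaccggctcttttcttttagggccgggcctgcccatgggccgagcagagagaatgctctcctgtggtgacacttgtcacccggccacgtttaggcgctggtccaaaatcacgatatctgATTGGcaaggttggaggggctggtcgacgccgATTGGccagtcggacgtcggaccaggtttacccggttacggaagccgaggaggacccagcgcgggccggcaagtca
Ap1g1: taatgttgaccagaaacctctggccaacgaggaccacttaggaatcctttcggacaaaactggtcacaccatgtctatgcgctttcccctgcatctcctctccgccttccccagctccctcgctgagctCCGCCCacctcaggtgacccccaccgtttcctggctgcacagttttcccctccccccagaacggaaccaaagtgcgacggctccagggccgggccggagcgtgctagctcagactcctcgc
Ddx19a: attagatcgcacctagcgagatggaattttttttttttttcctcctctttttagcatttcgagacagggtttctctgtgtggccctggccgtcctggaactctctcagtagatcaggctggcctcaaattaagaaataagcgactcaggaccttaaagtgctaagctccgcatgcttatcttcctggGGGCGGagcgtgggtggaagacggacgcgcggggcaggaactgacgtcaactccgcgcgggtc
Exosc6: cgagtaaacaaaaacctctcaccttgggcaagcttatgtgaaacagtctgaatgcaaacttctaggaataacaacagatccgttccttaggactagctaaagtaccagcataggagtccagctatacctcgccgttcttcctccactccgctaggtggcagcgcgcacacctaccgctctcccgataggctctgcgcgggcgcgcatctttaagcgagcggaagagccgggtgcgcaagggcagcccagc
Nqo1 held 2 GC boxes and 1 TATA box, Cyb5b held 2 CCAAT boxes, Ap1g1 and Ddx19a held 1 GC box each, and Nob1 and Exosc6 had no match to these letters. The CpG count was 19 in Nob1, 5 in Nqo1, 20 in Cyb5b, 14 in Ap1g1, 16 in Ddx19a and 17 in Exosc6. Over all 76 RefSeq promoters in the 10 Mb on the centromeric side of the step, 52.6% held a GC box, 28.9% a CCAAT box, 3.95% a TATA box and 2.63% an AP-1 site. Over the 68 on the telomeric side the shares were 50%, 42.6%, 10.3% and 7.35%, and over all 21263 promoters of the genome 42.6%, 35.4%, 11.6% and 6.13%. Their median GC content was 59.8% on the centromeric side, 57.2% on the telomeric side and 55.6% in the genome, with a median of 13.5 CpGs on both sides and 10 in the genome. Most promoters of either side therefore lacked a TATA box. These windows hold 250 bases each, and a match is a description of letters, not of a bound factor.

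At these promoters the values were as follows. The Nqo1 promoter peak was among the most open of the region, at 7792, 8022 and 7775 normalised reads in the NTC libraries, 6751, 6537 and 7053 with shMed4 #1, and 6080, 6840 and 7408 with shMed4 #4. Every hairpin library lay below every NTC library, with log2 folds of -0.21 ± 0.05 (SE) and -0.22 ± 0.05. The Nob1 peak read 1901, 1902 and 1825 in NTC, 1593, 1612 and 1795 with #1, and 1589, 1776 and 1787 with #4, again without overlap. At Cyb5b the hairpins parted, with 2086, 2005 and 2019 in NTC, 2062, 2103 and 2202 with #1, and 1685, 1764 and 1882 with #4. On the other side the groups overlapped at Ap1g1, with 1316, 1398 and 1488 in NTC, 1308, 1441 and 1543 with #1 and 1237, 1548 and 1586 with #4. Ddx19a read 1168, 1104 and 1158 in NTC, 1235, 1244 and 1320 with #1, and 1208, 1197 and 1173 with #4. All 6 of its hairpin libraries were above the NTC libraries, by 0.15 ± 0.05 and 0.06 ± 0.05 (SE) on the log2 scale. Exosc6 read 1291, 1239 and 1280 in NTC, 1226, 1355 and 1474 with #1, and 1211, 1406 and 1545 with #4, which overlap.

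The libraries held 44.8 to 98.9 M reads in peaks, of which 3.19 to 7.21 M were on chromosome 8. Its median peak held 106.5 to 248.5 reads. Chromosome 8 took 6.998% to 7.04% of the reads in peaks in NTC, 7.28% to 7.38% with #1 and 6.99% to 7.12% with #4. Depth was unequal within the hairpins, and replicate 3 had the fewest reads of each. That replicate was the highest of its group at 75.2% of the 624 peaks at genes of the chromosome with #1 and at 56.1% with #4, and at 46% in NTC, whose replicate 3 was not the shallowest. With #4, replicate 1 was the lowest at 79.5% of those peaks. Over all 9134 peaks replicate 3 was highest at 36.3%, 36.1% and 30.7%, and the part of depth in the results was not tested. As a check of the labelled carcinoma cells, peaks at the ends of the mesenchymal genes Vim, Fn1 and Col1a1 stood at the 99.1, 95.9 and 89 percentiles of NTC levels. The epithelial genes Krt8, Epcam and Cdh1 had no gene-end peak, nor did the endothelial genes Pecam1 and Kdr or the leukocyte genes Ptprc and Cd3e. The summed level of the 2 measured epithelial markers, of 5 listed, was 223 to 248.6 in NTC, 390 to 426 with #1 and 499 to 561 with #4. Over all libraries Krt18 ran from 159.5 to 509.8 and Cldn7 from 31.9 to 78.3, so the rise of the sum lay in Krt18. The summed level of the 4 measured mesenchymal markers, of 5, was 7667 to 8483, 6869 to 6984 and 6792 to 7472. For 2 of 4 endothelial markers it was 318 to 352, 486 to 536 and 367 to 418, and for 2 of 5 leukocyte markers 1366 to 1468, 1227 to 1399 and 1214 to 1287. No measured marker was at 0, and the part of such differences in the results was not tested.

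Values below are normalised read counts, and a fold is the difference of mean log2(value + 1) between groups. A peak is said to be called where limma's Benjamini-Hochberg adjusted p over all tested peaks was under 0.05. With shMed4 #1, 4798 of the 9134 peaks were called, 2963 higher and 1835 lower, or 32.4% and 20.1%. Over the genome 52.7% of peaks were called, 27.9% higher and 24.9% lower. With shMed4 #4, 4840 were called, 2595 higher (28.4%) and 2245 lower (24.6%), beside 50.4% over the genome, 26.2% higher and 24.3% lower. With both hairpins, 1869 peaks were higher (20.5%) and 1127 lower (12.3%), beside 17.6% and 13.5% over the genome. The rule used these contrasts, and both share the NTC libraries, so nothing is read from the counts. The split between higher and lower calls depended on scaling. Of the calls, 61.8% were higher with #1 and 53.6% with #4 as deposited, 48.5% and 38.9% after centring on peaks away from gene ends, and 70.2% and 68% after centring on gene-end peaks. Those centrings moved the median fold of all peaks by up to -0.11 with #4, and the values below are relative to the deposited scale. A step between neighbouring stretches of the same libraries does not depend on that scale.

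The median log2 fold of the whole chromosome was near 0, at 0.05 with #1 and 0.0027 with #4, but its stretches differed. From the centromere to 60 Mb every 10 Mb window had a median above 0 with both hairpins. These medians ran from 0.09 to 0.24 with #1 and from 0.05 to 0.26 with #4 over the windows from 0 to 40 Mb. The window from 50 Mb was the highest, at 0.49 with #1 and 0.35 with #4, and it held only 173 peaks with a median NTC value of 85.7. The window from 60 Mb was near 0, at 0.04 and 0.02. From 70 Mb to 110 Mb all 4 windows were below 0, at -0.11, -0.14, -0.15 and -0.15 with #1 and -0.17, -0.25, -0.27 and -0.25 with #4. The last windows, from 110 and 120 Mb, returned to 0.22 and 0.20 with #1 and 0.19 and 0.17 with #4. Over all peaks on the deposited scale, the chromosome thus had a centromeric stretch above NTC, a stretch below it and a telomeric stretch above it. The sign of the first stretch did not hold for gene-end peaks with #4, whose medians in the windows from 10, 30 and 40 Mb were -0.07, -0.07 and -0.01. Centring on peaks away from gene ends moves the #4 folds by -0.11, which exceeds its medians in the windows from 10 and 30 Mb (0.05 and 0.10). In the same windows the 3 NTC libraries deviated from their own mean by -0.02 to 0.02.

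**Figure D1:**
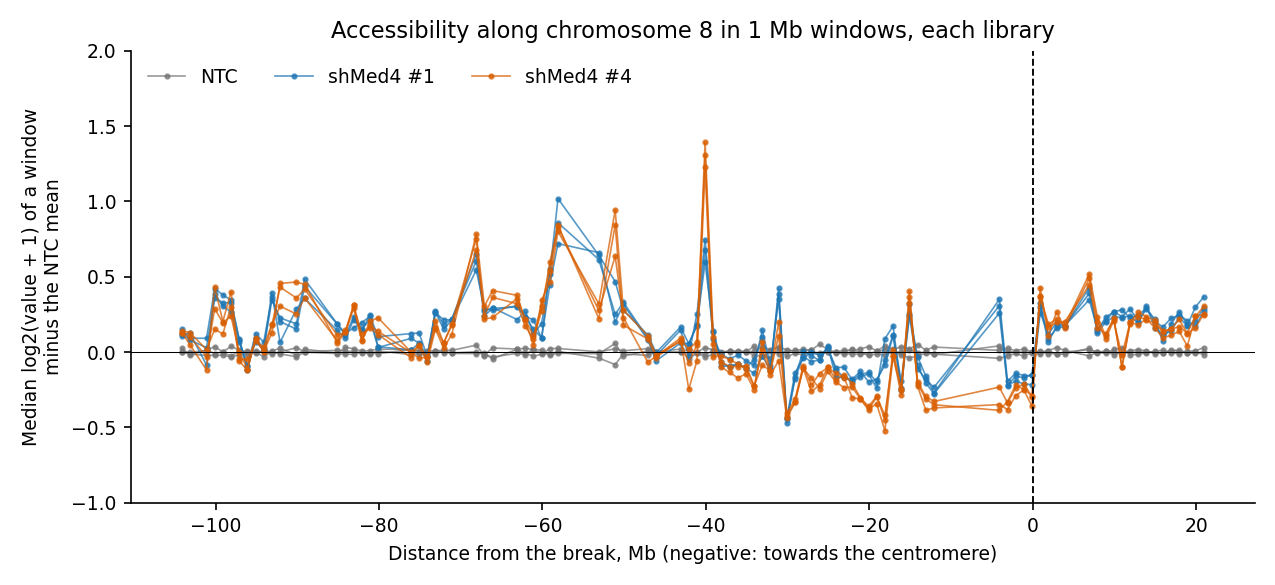
Median log2(value + 1) minus the NTC mean in 1 Mb windows of chromosome 8 with at least 20 peaks (96 windows; 30 others are not drawn), against distance from the break in Mb, with 1 line per library. Most windows of the last 40 Mb before the dashed line lie below 0 with both hairpins. Exceptions include those from 76 and 92 Mb, and from 103 Mb with shMed4 #1. The first windows beyond the line lie above 0. The 3 NTC lines are drawn against their own mean and stay near 0.

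The step between the windows from 100 and 110 Mb was present in every hairpin library. In shMed4 #1 the medians of the libraries went from -0.16, -0.12 and -0.12 to 0.23, 0.22 and 0.23, a step of 0.36 ± 0.03 (SD, n = 3). In shMed4 #4 they went from -0.26, -0.21 and -0.22 to 0.21, 0.21 and 0.21, a step of 0.44 ± 0.03 (SD, n = 3). The NTC libraries, each set against the NTC mean, stepped by 0.02, -0.02 and -0.00077. Their deviations from their own mean cancel at each peak, so they cannot show a step that all NTC libraries share. Every hairpin library was set against that same mean. The chromosome was chosen for this step, so the ranks of the step are a description. Among 237 pairs of neighbouring 10 Mb windows of the genome with at least 100 peaks in each, this was the largest rise with either hairpin. By absolute size it ranked the third with #1 and the second with #4, and the median absolute step was 0.06 with both. The fall from the window at 50 Mb into that at 60 Mb of the same chromosome was the largest with #1 (-0.45) and the fifth with #4 (-0.33), and it leaves a window of 173 peaks. The hairpins compared with each other stepped by 0.07 at 110 Mb, less than either did against NTC.

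A search for a single break placed the step below 110 Mb. Over the 30 Mb that begin at 95 Mb, the split that left the least summed deviation from the median of each side fell between peak centres at 107613601 and 107618364 with #1. With #4 it fell between 107588434 and 107597027. From the last centre below both to the first centre above both is 29930 bp, with 3 peaks between. Split there, the median fold went from -0.19 over 959 peaks to 0.20 over 1729 with #1, and from -0.31 over 956 to 0.18 over 1732 with #4. The split removed 10.3% of the summed deviation with #1 and 15.4% with #4. Searching the whole chromosome gave the same positions.

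Searched one library at a time, the #4 libraries broke at 107.59, 107.59 and 107.61 Mb and the #1 libraries at 107.62, 107.44 and 107.62 Mb. The NTC libraries, again set against their own mean, broke at 107.41, 107.38 and 95.25 Mb. Their medians on the 2 sides differed by 0.02, -0.03 and 0.04. In the hairpin libraries the same difference was 0.37 to 0.42 with #1 and 0.47 to 0.51 with #4. Between the hairpins, #4 against #1, the best split removed 0.62% of the deviation. In a search of every chromosome for its own best split, chromosome 8 ranked the third for deviation removed with both hairpins, at 2.36% and 2.98% of the whole chromosome's. Chromosome X was first with both, at 4.16% and 6.84%, and chromosome 16 second, at 2.71% and 3.68%.

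Around the break the map of genes is uneven. The last gene on the centromeric side is Psmd7, a subunit of the proteasome's regulatory particle, next to the ubiquitin ligase gene Wwp2. The 3 peaks between the limits of both hairpins' intervals are all nearest to Psmd7, at 8545, 14766 and 25119 bp from it, and they are weak, with NTC means of 59.2, 56.5 and 72.5. Their log2 folds were 0.26, -0.22 and -0.14 with #1 and 0.30, -0.13 and 0.65 with #4, so they belong clearly to neither side. The 50 peaks just on the centromeric side span 107.37 to 107.59 Mb, with medians of -0.09 with #1 and -0.30 with #4. The next 50, from 107.17 to 107.37 Mb, had -0.33 and -0.47. The first 50 peaks on the telomeric side were spread thinly over 107.62 to 108.79 Mb, with medians of 0.37 and 0.50. The following blocks of 50, up to 110.79 Mb, ran from 0.07 to 0.12 with #1 and from 0.05 to 0.20 with #4. With #4 the first block on each side already had the sign of its side at a size near that of the flank or above it. With #1 the last block before the break was nearer to 0 than the 3 blocks before it, whose medians were -0.33, -0.24 and -0.25.

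**Figure D2:**
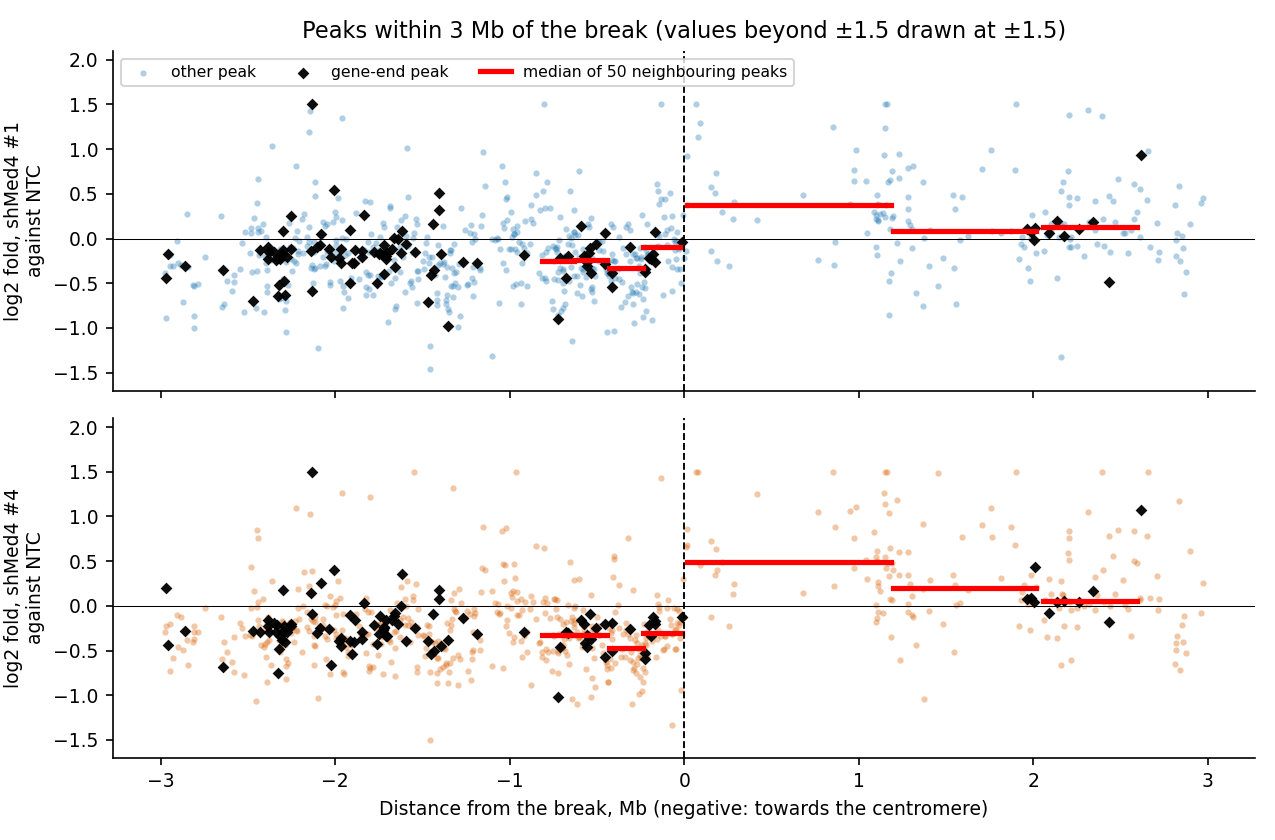
Log2 fold against NTC of each peak within 3 Mb of the break with shMed4 #1 (upper panel) and shMed4 #4 (lower panel), against distance from the break in Mb, with values beyond 1.5 drawn at 1.5. Red bars are medians of the 4 blocks of 50 neighbouring peaks nearest to the break on each side that lie inside the panel; gene-end peaks (black) are absent for about 2 Mb on the telomeric side.

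Compared over the 10 Mb on either side of the break, 712 peaks lay on the centromeric and 694 on the telomeric side. The median level of the centromeric peaks was 208, 208 and 206 in the NTC libraries, 192, 185 and 182 with #1, and 183, 182 and 171 with #4. All 6 hairpin libraries were below all 3 NTC libraries. On the telomeric side the levels were 185, 189 and 184 in NTC, 226, 235 and 221 with #1, and 242, 237 and 236 with #4. Every hairpin library was above every NTC library there. The break was placed by these same folds, so nothing is read from the lack of overlap. Pooled over all peaks, the centromeric side was thus the more open in NTC, at 207 ± 1.41 against 186 ± 2.39 (SD, n = 3). With both hairpins the telomeric side was. Peaks at promoters did not change order, and the centromeric ones stayed the more open, at 2017 against 1357 with #1 and 1783 against 1316 with #4. For gene-end peaks the 2 sides were close, at 744 against 741 with #1 and 743.5 against 732 with #4. The median fold went from -0.18 to 0.21 with #1, a step of 0.40, and from -0.31 to 0.23 with #4, a step of 0.54. Peaks above 0 made up 28.7% on the centromeric and 73.9% on the telomeric side with #1, and 18.8% and 75.2% with #4. The median of #4 against #1 was -0.11 on the centromeric side, where 9.55% of peaks were called higher and 28.9% lower. On the telomeric side it was 0.01, with 18.3% higher and 18.9% lower, beside 20.4% and 21.2% over the genome.

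**Figure D3:**
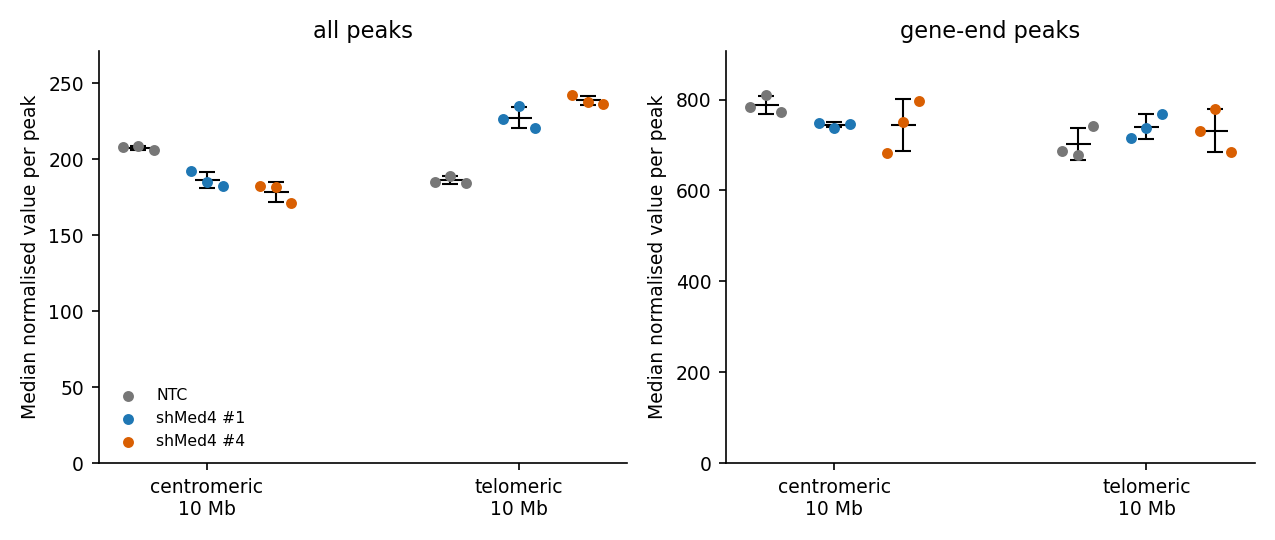
Median normalised read count per peak in the 10 Mb on either side of the break, for all peaks (left) and gene-end peaks (right), with 1 point per library and bars for the mean and SD of 3 libraries. For all peaks the hairpin libraries lie below NTC on the centromeric side (171 to 192 against 206 to 208). On the telomeric side they lie above it (221 to 242 against 184 to 189). For gene-end peaks only shMed4 #1 on the centromeric side does not overlap NTC. The sides were set by folds against NTC.

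The step was present in each kind of peak, and its size differed between them. Peaks inside genes stepped by 0.46 with #1 and 0.59 with #4 (398 and 404 peaks on the centromeric and telomeric side). Peaks outside genes stepped by 0.34 and 0.50 (199 and 225 peaks). Gene-end peaks, whose centres lie at most 1 kb from the start or end of a protein-coding gene, stepped by 0.29 and 0.38 (180 peaks in all). Peaks that overlap a RefSeq promoter window stepped by 0.26 and 0.35 (43 and 40 peaks). The folds of promoter peaks were the least scattered, and 4.65% of them lay above 0 on the centromeric side with #1 and 2.33% with #4, against 90% and 70% on the telomeric side. The median level of gene-end peaks on the centromeric side was 772 to 810 in NTC, 738 to 749 with #1 and 683 to 797 with #4, so the #1 libraries lay below NTC and the #4 libraries overlapped it. On the telomeric side it was 679 to 743, 715 to 769 and 684 to 779, and both hairpins overlapped NTC. Pooled over kinds of peak, the step was larger in weaker peaks. From the lowest to the highest quartile of NTC level on the chromosome, bounded at 86.9, 179 and 573, the step was 0.61, 0.54, 0.34 and 0.31 with #1 and 0.75, 0.60, 0.49 and 0.41 with #4. Peaks outside genes did not follow this order with #1, where the same steps were 0.19, 0.34, 0.15 and 0.41.

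**Figure D4:**
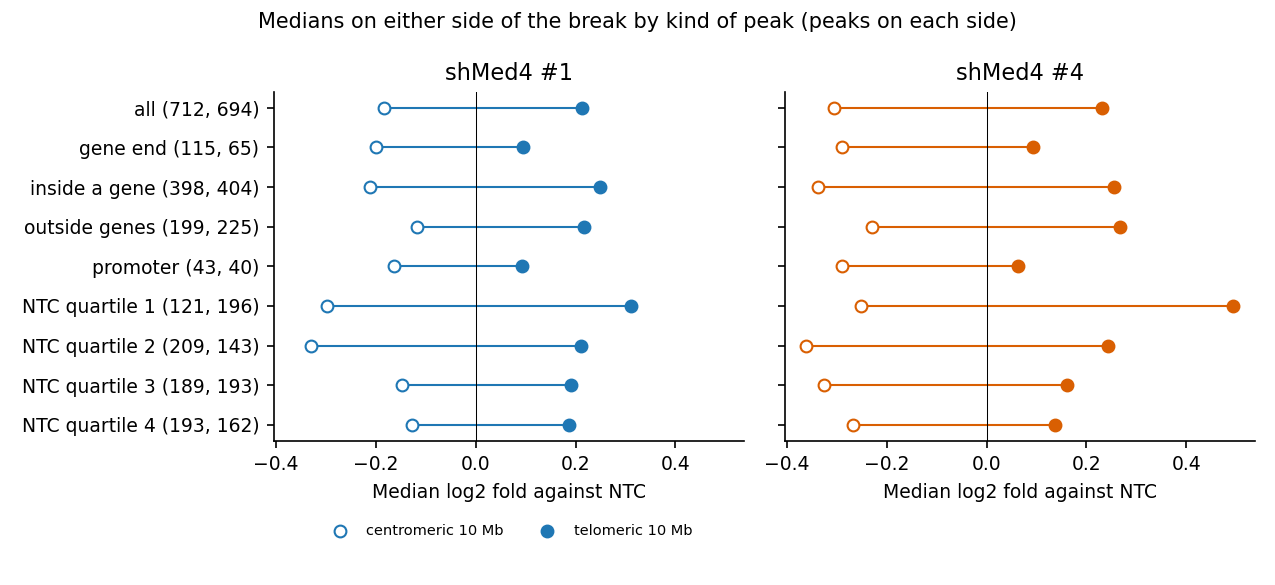
Median log2 fold against NTC in the 10 Mb on the centromeric (open) and telomeric (filled) side of the break, for shMed4 #1 (left) and shMed4 #4 (right), by kind of peak and by quartile of NTC level, with the number of peaks on each side in brackets. Every open point lies below 0 and every filled point above it, with the widest span in the lowest quartile of NTC level. The sides were set by these folds over all peaks.

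Gene by gene, each protein-coding gene was given its promoter peak or, where it had none, its most open gene-end peak. Of 1043 protein-coding genes on the chromosome, 730 had such a peak, 435 by promoter and 295 by gene end, and 139 shared it with another gene. In the 10 Mb on the centromeric side, 56 of 87 genes were lower and 3 higher with #1 (64.4% and 3.45%), and 69 were lower and 4 higher with #4 (79.3% and 4.60%). In the 10 Mb on the telomeric side, 1 of 56 genes was lower and 16 higher with each hairpin (1.79% and 28.6%). Over the genome 36.3% of 13030 genes were lower and 10.2% higher with #1, and 43% lower and 10.6% higher with #4. The median fold was -0.17 and -0.29 on the centromeric side and 0.10 and 0.08 on the telomeric side. To the end of the chromosome, 163 genes lay beyond the break, of which 41 were higher and 8 lower with #1 and 40 higher and 9 lower with #4. Over the 567 genes before it, 65 were higher and 195 lower with #1 and 55 higher and 266 lower with #4. The rule used these contrasts, so the shares describe the 2 sides and are not tested.

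The genes nearest to the break are given one by one. Psmd7, 0.01 Mb before it, read 1933, 1930 and 1905 in NTC, 1760, 1852 and 2017 with #1 and 1548, 1810 and 1969 with #4, with overlapping groups and folds of -0.04 ± 0.06 and -0.12 ± 0.06 (SE). Wwp2 read 833, 810 and 861 in NTC, 620, 738 and 733 with #1 and 657, 726 and 797 with #4. All 6 of its hairpin libraries were below the lowest NTC library, with folds of -0.26 ± 0.07 and -0.20 ± 0.07. Nfat5, the transcription factor of the response to osmotic stress, read 2411, 2510 and 2380 in NTC, 2130, 2270 and 2428 with #1 and 1834, 2035 and 2258 with #4. There the #4 libraries were all below NTC and 1 library of #1 was not. Beyond the break no gene peak occurs before a promoter of Zfhx3, 1.11 Mb on, which read 860, 851 and 903 in NTC, 942, 999 and 1084 with #1 and 777, 834 and 877 with #4. It was above NTC in every #1 library, by 0.21 ± 0.06, and overlapped NTC with #4, at -0.07 ± 0.06. The peak shared by the splicing helicase Dhx38 and Txnl4b read 2605, 2673 and 2632 in NTC, 2757, 2801 and 2928 with #1 and 2592, 2876 and 2910 with #4. Dhodh, an enzyme of pyrimidine synthesis, had folds of -0.02 ± 0.05 and 0.04 ± 0.05, and Ist1, which acts in membrane scission, 0.06 ± 0.05 and -0.08 ± 0.05. The telomeric genes nearest to the break thus had folds on both sides of 0.

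**Figure D5:**
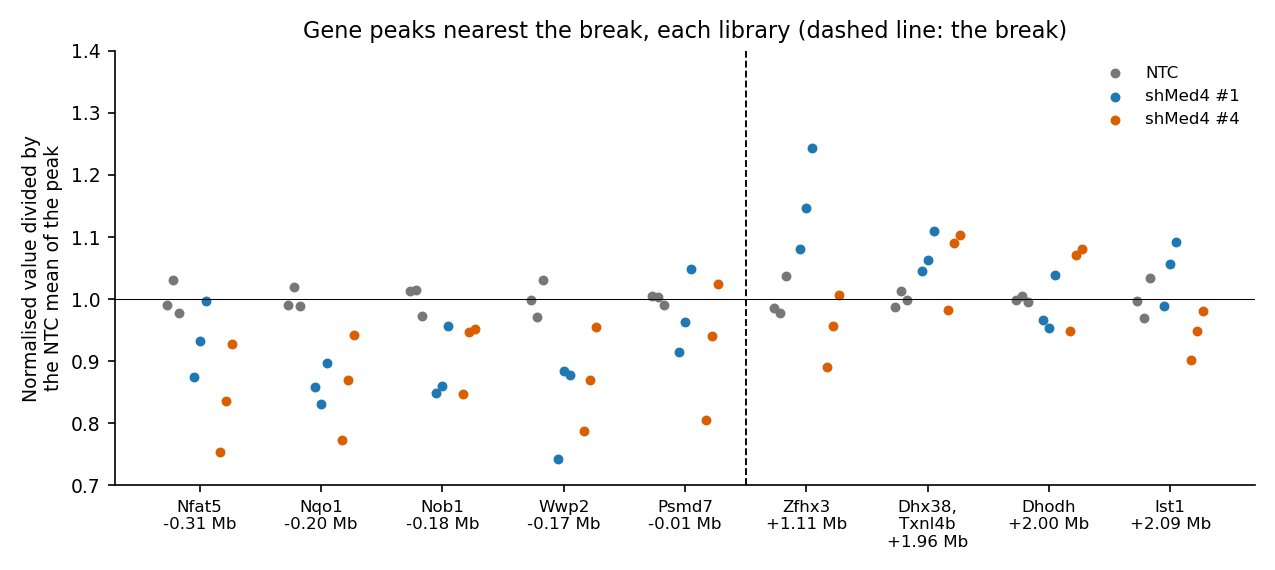
Normalised read count divided by the NTC mean at the gene peaks nearest to the break, with 1 point per library and the distance from the break in Mb under each gene; the dashed line marks the break and the vertical axis does not start at 0. Wwp2, Nob1 and Nqo1 have all 6 hairpin libraries below the NTC libraries, and no gene shown on the telomeric side does. Over the genome 36.3% of gene peaks were called lower with #1 and 43% with #4. The share without overlap was not counted, and the sides were set by these folds, so nothing is read from the contrast.

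Genes of known roles are given next. Their lists were written with earlier results of these data known. Of 30 transcription and chromatin factors, 22 had a gene peak. With #1, 4 were higher and 6 lower, and with #4, 2 were higher and 11 lower, with medians of -0.11 and -0.15. That is 18.2% higher and 27.3% lower with #1 and 9.09% and 50% with #4, beside 10.2% and 36.3%, and 10.6% and 43%, of all gene peaks of the genome. The counts of the lists that follow are to be read against the same shares. Those of the 10 Mb before the break were Ctcf, which organises chromatin loops, Cbfb, E2f4, Nfatc3, Nfat5 and the telomere protein gene Terf2. All 6 had folds below 0 with both hairpins, from -0.06 to -0.17 with #1 and from -0.25 to -0.45 with #4. So did most peaks of their kind in those 10 Mb. There 4.65% of promoter peaks and 14.8% of gene-end peaks lay above 0 with #1, and 2.33% and 10.4% with #4. At Ctcf the level was 1659 ± 12 in NTC, 1535 ± 69.7 with #1 and 1230 ± 210 with #4 (SD, n = 3). At Nfatc3 it was 5153 ± 114, 4630 ± 271 and 4344 ± 253. Beyond the break, Banp read 1044 ± 6.75 in NTC, 1440 ± 39.3 with #1 and 1289 ± 27.6 with #4. Gse1 was higher at a low level, 38.2 ± 16.5, 67.8 ± 5.47 and 77 ± 13.4. These genes were called higher with both hairpins, Zfhx3 and Snai3 with #1 only, and Ankrd11 and Cbfa2t3 with neither. Foxf1, a forkhead factor beyond the break, was against its neighbourhood, at 831 ± 50.3, 686 ± 15.8 and 664 ± 53. Of the Mediator subunits, Med26 read 2326 ± 146, 2150 ± 99.5 and 2162 ± 143, and was not called with either hairpin.

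The AP-1 gene Junb, in the stretch below NTC, read 3009 ± 109 in NTC, 2767 ± 284 with #1 and 2639 ± 287 with #4, with folds of -0.13 ± 0.06 and -0.19 ± 0.06 (SE), and was called with #4 alone. Jund was lower with both, at -0.19 ± 0.06 and -0.20 ± 0.06. The metallothioneins, small metal-binding proteins encoded side by side, were all measured. With #1, 2 of 4 were lower and 1 higher, and with #4, 3 were lower and 1 higher. Mt2 read 2844 ± 127, 2232 ± 111 and 1983 ± 120 (SD, n = 3) and Mt1 read 7910 ± 203, 6833 ± 337 and 6362 ± 592. Mt4, at the centromeric end of the cluster, was the one higher, at 617 ± 5.86, 913 ± 31.9 and 684 ± 19.9. Of the 13 redox and metabolic genes measured out of 14, 0 were higher with either hairpin and 3 and 4 were lower, among them Nqo1, the peroxiredoxin Prdx2 (-0.21 and -0.40) and the transaminase Got2 (-0.20 and -0.21). Hmox1, which degrades haem, was called with #4, at -0.28 ± 0.05, and had -0.10 ± 0.05 with #1.

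Of 21 genes of growth factor and receptor signalling, 17 were measured, with 3 higher and 5 lower with #1 and 2 higher and 7 lower with #4. The lower ones lay in the stretch from 70 to 110 Mb, apart from the oxygen-sensing enzyme Egln1 with #4. That stretch and the break were set by these same folds, so nothing is read from where the genes of this list lie. The endothelin receptor Ednra read 533 ± 14.4 in NTC, 330 ± 41.6 with #1 and 365 ± 29.3 with #4. The adaptor Gab1 read 3772 ± 68.4, 2642 ± 143 and 3303 ± 239, and the cytokine Il15 read 1295 ± 35.3, 891 ± 20.3 and 862 ± 42.4. The higher ones lay beyond the break. Nrp1, a co-receptor for semaphorins and VEGF, read 376 ± 15, 508 ± 29.7 and 482 ± 34.3, the focal adhesion scaffold Bcar1 read 1532 ± 60.5, 1737 ± 88.4 and 1885 ± 188, and the integrin Itgb1 read 2229 ± 92.1, 2604 ± 248.8 and 2379 ± 191. Itgb1 was called with #1 only, and Plcg2 and Piezo1, also beyond the break, with neither hairpin. Of genes near the centromere, Fgfr1, Insr, Irs2, Dusp4 and Ikbkb were not called with either hairpin.

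Of the matrix and protease list, 4 of 9 genes were measured. Col4a1 and Col4a2, the basement membrane collagens, share 1 peak, which fell from 750 ± 23.6 in NTC to 483 ± 82.6 with #1 and 373 ± 59.4 with #4. It lies at chr8:11312547-11313048, in a 10 Mb window with medians of 0.09 and 0.05 and a 1 Mb window with medians of -0.11 and -0.11. The plasminogen activator Plat was higher with both, at 0.20 ± 0.06 and 0.21 ± 0.06, and Adam9 was at 0.02 and -0.006. Of 8 cadherins, 3 were measured. Cdh5 read 239 ± 10.1, 433 ± 33.7 and 282 ± 18.4 and was higher with both although it lies before the break, Cdh16 was lower with both (-0.28 and -0.18), and Cdh15 was higher with #4. Irx3 and Irx5, transcription factors of the Iroquois cluster, were lower with both, Irx3 at 3230 ± 199, 2594 ± 115.1 and 2342 ± 275. Of 5 translation and proteasome genes, 2 were lower with #1 and 3 with #4, and 0 were higher. Of 54 genes whose symbol begins with Def, 2 had a gene peak, Defb14 and Def8, the latter not a defensin.

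Single peaks changed far more than the regional medians. At least 2-fold increases made up 6.49% of the chromosome's peaks with #1 and 7.26% with #4, beside 6.53% and 7.13% of all peaks. At least 2-fold decreases made up 1.41% and 0.93%, beside 2.58% and 0.92%. The most increased peaks called with both hairpins were distal or inside genes, and they lay on both sides of the break. One peak 38132 bp from Tacc1, a gene of the mitotic spindle, went from 17, 21.6 and 16.4 in NTC to 206, 213 and 220 with #1 and 165, 184 and 131 with #4. Inside the ciliary gene Rpgrip1l a peak went from 98.5 ± 14.6 in NTC to 963 ± 55.1 with #1 and 896 ± 82.2 with #4 (SD, n = 3). The gelatinase gene Mmp2 held a peak that went from 130, 80.1 and 124 to 974, 873 and 937 and to 954, 955 and 903, with folds of 3.08 ± 0.10 and 3.10 ± 0.10 (SE). Its neighbour Lpcat2, an acyltransferase, held another, with folds of 2.82 ± 0.11 and 3.46 ± 0.11. These 3 genes lie in the 10 Mb window from 90 Mb, whose median was below 0, but the 1 Mb window from 92 Mb, which holds Mmp2 and Lpcat2, had medians of 0.25 and 0.35. Beyond the break the glycosylation enzyme gene Galnt2 held a peak that went from 189, 170.5 and 137 to 1678, 1553 and 1440 and to 1523, 1423 and 1450. Nrp1 and Zcchc14 held peaks with folds of 3.35 and 3.35 with #1 and 2.61 and 2.59 with #4. These peaks were chosen for their calls and the size of their folds, so the lack of overlap between their hairpin libraries and NTC follows from the choice.

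All 8 most decreased peaks lay before the break, all within the 50 Mb centromeric of it. Of all peaks of the chromosome, 7010 lay before the break and 2121 beyond it, with 3 between. The 8 peaks were chosen by the folds that also set the break, so nothing is read from their location. The peak inside Palld, an actin-binding protein, went from 398, 368 and 335 in NTC to 68.8, 59.2 and 46.2 with #1 and 182, 148 and 125.2 with #4. The peak nearest to the zinc finger factor Sall1, 11523 bp away, went from 601, 565 and 602 to 135, 145 and 157 and to 246, 265 and 270. Pla2g15, a lysosomal phospholipase gene 1.46 Mb before the break, had a peak 1852 bp away that fell by 1.20 ± 0.10 with #1 and 1.58 ± 0.10 with #4 on the log2 scale (SE). Peaks nearest to Psd3, Siah1a, N4bp1 and Il15 were also among them, with folds from -2.25 to -1.43 with #1 and from -1.24 to -0.93 with #4.

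The hairpins differed from each other at 3617 peaks (39.6%), 1384 higher with #4 than with #1 (15.2%) and 2233 lower (24.4%). Over the genome 41.6% were called, 20.4% higher and 21.2% lower. Some of the largest differences had opposite signs against NTC. A peak inside Cdh1, the gene of E-cadherin, 0.96 Mb before the break, read 248, 232 and 243 in NTC, 159, 188 and 160 with #1 and 796, 806 and 757 with #4. The hairpins parted there by 2.21 ± 0.09 (SE) on the log2 scale, with neither overlapping NTC. Inside Adgra2, an adhesion receptor gene, a peak read 545, 585 and 541 in NTC, 190, 170 and 216 with #1 and 829, 967 and 1000 with #4. Inside Cdh13, the gene of T-cadherin, 10.6 Mb beyond the break, a peak read 106, 80.1 and 85.1 in NTC, 214, 233 and 243 with #1 and 71.8, 52.4 and 63.5 with #4. Inpp4b, a phosphoinositide phosphatase gene, held a peak on each list, with #4 against #1 at 2.29 ± 0.19 in one and -1.59 ± 0.12 in the other. A peak inside Sorbs2 read 99.6 ± 6.72 in NTC, 72.5 ± 3.54 with #1 and 397 ± 7.55 with #4. Near Spcs3 a peak read 73.8 ± 18.2, 453 ± 19.2 and 86.5 ± 5.62. These peaks lay in 10 Mb windows where the hairpins' medians had the same sign, although the 1 Mb window of the Cdh13 peak had medians of 0.21 with #1 and -0.10 with #4.

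The 3 most open peaks of the chromosome in NTC were near Adgrg1, Aktip and Def8. In the peak inside Adgrg1, the NTC mean was 15680 normalised reads, and the folds were -0.06 ± 0.06 with #1 and -0.20 ± 0.06 with #4 (SE). Inside Aktip a peak read 11730 ± 315 in NTC, 10210 ± 779 with #1 and 10260 ± 956 with #4. The peak 9060 bp from Def8, beyond the break, read 11870 ± 92.7 in NTC, 11310 ± 185 with #1 and 8825 ± 694 with #4, and its fold of -0.43 ± 0.04 with #4 was against the sign of its window.

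The other end of the low stretch was less sharp. A search from 55 to 85 Mb, chosen after the values were seen, put a fall at 68.79 Mb with #1, from 0.13 to -0.11, and at 68.70 Mb with #4, from 0.11 to -0.18. It removed 3.14% and 3.86% of the summed deviation, less than the 10.3% and 15.4% at the step. Among gene-end peaks the fall was placed at 70.57 Mb with #1 and 72.61 Mb with #4, so its position was less fixed. Near it, the window from 67 Mb held 34 weak peaks with a median NTC value of 58.4 and stood at 0.64 with #1 and 1.31 with #4. Among windows of 1 Mb with at least 20 peaks it was the highest with #4.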

How the data were processed

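Members, gene lists and alternatives were chosen with earlier results of these data known. ATAC-seq libraries of 3 groups (3 each) were used. The authors deposited a signal per peak, read counts that the file name credits to DESeq2 normalisation, in 146734 peaks. Per the submitters' processing notes, the tools were BWA, Trim Galore, MACS2, Subread and featureCounts, with no versions. The sources used here do not say whether libraries were pooled for peak calling. All values were whole multiples of 1 step per library within 0.001 read, which gave the depths of 44.8 to 98.9 M. Coordinates are as deposited, and the base they count from is not given.

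One fit was made with limma 3.58.1 in R 4.3.3 (lmFit, eBayes with trend) on log2(value + 1) over 9 libraries, for 146729 peaks. A mean under 10 removed 5 peaks. It was tested on simulated data. Peaks were called at a Benjamini-Hochberg adjusted p under 0.05. The break was the split with the smallest summed absolute deviation from the medians, with at least 50 peaks a side. Genes came from RefSeq (GRCm38.p6), and the nearest gene was taken within 100 kb. Chi-square per peak was 2.00 to 2.92 between libraries of a group and 9.96 to 29.1 between groups, so none were merged. Named peaks were the listed genes, the 8 highest and 8 lowest called with both hairpins and the 5 highest and 5 lowest of #4 against #1 (mean of at least 50, 1 per gene, no predicted genes), the 5 genes nearest to the break on each side and the 3 most open peaks. The sequences shown follow a rule added later. Alternatives changed pseudocount, filter, scaling, windows, peak class and libraries. Python 3.11.15, numpy 2.4.6, pandas 2.3.3 and matplotlib 3.10.9 were used.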

Additional observations from a re-analysis of the deposited data

How the results depend on the processing

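Counts of called peaks stayed within 1.5 times under every alternative run, at 3734 to 5002 with #1, 3833 to 5218 with #4 and 2698 to 3775 between the hairpins. No same-numbered pair of libraries, of 9, had deviations over all tested peaks correlated over 0.1 (-0.01 to 0.07), and the main fit used no replicate block. At the 624 peaks at genes of the chromosome, though, replicate 1 was the lowest at 55.45% with #1, 79.5% with #4 and 38.8% in NTC. Whether replicate numbers pair the libraries is therefore not settled. With the replicate block 4950, 4999 and 3775 peaks were called. The edgeR and DESeq2 alternatives were not run. The median of the chromosome, near 0, turned sign with scaling: after centring on gene-end peaks it was 0.11 with #1 and 0.10 with #4, and after centring on peaks away from gene ends -0.038 and -0.11. For #4 it was -0.0031 without NTC replicate 1 and -0.0034 without shMed4 #4 replicate 2, and leaving out single libraries gave -0.0034 to 0.0077. The step kept its direction under all alternatives. For #1 it was 0.40 with 10 Mb on either side of the break, 0.29 in gene-end peaks, 0.28 in peaks above the median NTC level and 0.51 in those at or below it. For #4 it was 0.54, 0.37, 0.38 and 0.56 in the same order, 0.47 as a mean over peaks and 0.48 in windows of 5 Mb. The break of #1 moved to 107.44 Mb in gene-end peaks, and leaving out single libraries gave 107.44 to 107.62 Mb, with 107.44 Mb without NTC replicate 1 and 107.45 Mb without shMed4 #1 replicate 1. For #4 it moved to 108.58 Mb in gene-end peaks, which have no centre between 107588434 and 109565748. Depth limits the weak peaks, with 106.5 reads in the median peak of the shallowest library, and the cause of each move was not tested.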
